A study of Mus musculus with 8 samples.

Results

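The genes described here are 10 genes for enzymes that make serine, cysteine, methylglycine (sarcosine), and creatine. *Phgdh*, *Psat1*, and *Psph* encode the serine synthesis enzymes, *Shmt1* and *Shmt2* the serine hydroxymethyltransferases, *Cbs* and *Cth* the transsulfuration enzymes, *Gnmt* a glycine methyltransferase, and *Gatm* and *Gamt* the creatine synthesis enzymes. They are 10 of the 48709 genes in each table and were found by gene symbol. *Cth* was picked for its higher level in cKO than in WT pancreas after FAEE-SAP, and the others were listed with it as enzymes of linked pathways. Values of that contrast are therefore given as a description, without a test, and the values of *Cth* are a description wherever those libraries enter.

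In the serine pathway, PHGDH, PSAT1, and PSPH turn the glycolytic intermediate 3-phosphoglycerate into serine, and the SHMT enzymes split serine into glycine and a one-carbon unit carried by folate. Transsulfuration joins serine to homocysteine and splits the product into cysteine, a precursor of glutathione. Methyl groups leave S-adenosylmethionine through methyltransferases such as GNMT, which methylates glycine, and GAMT, which makes creatine from the guanidinoacetate formed by GATM. The acinar cell, which makes the digestive enzymes and most of the pancreas, is known for a high rate of protein synthesis and for high creatine synthesis.

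Pancreata were taken from 8-week-old male mice 24 hours after saline or after palmitoleic acid (POA) and ethanol, which cause fatty acid ethyl ester severe acute pancreatitis (FAEE-SAP). WT mice were bought, whereas cKO mice (*Pfkfb3* fl/fl; *Pdx1*-Cre) came from a line made on C57BL/6J, in which Cre under the *Pdx1* promoter deletes part of *Pfkfb3* in the cells of the pancreatic lineage. The WT mice were therefore not littermates of the cKO mice, and genotype, colony, and Cre cannot be told apart. All mice given POA and ethanol had been fasted and also received buprenorphine, and each of the 4 groups had 2 libraries.

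The 8 libraries held 22.9 to 37.7 M reads, as worked out from the low values. All levels below are RPKM divided by a library factor (scaled RPKM), which ranged from 0.621 to 0.866 in the saline libraries, from 1.94 to 2.02 in the WT FAEE-SAP libraries, and from 0.975 to 1.05 in the cKO FAEE-SAP libraries. *Pfkfb3*, the deleted gene, was at 1.70 and 1.69 scaled RPKM in WT and 0.880 and 2.10 in cKO libraries with saline, and at 1.85 and 3.21 in WT and 1.74 and 2.82 in cKO libraries with FAEE-SAP. These levels overlapped between genotypes. As deposited, they overlapped with saline but not with FAEE-SAP (3.75 and 6.22 RPKM in WT, 1.82 and 2.75 in cKO). These values include the exons that Cre leaves in place and are a weak check of the labels. Of 12 acinar markers, 12 were above 0 in every library. Their summed level was 203069 to 235794 in WT saline and lay between 69954 and 71889 in WT FAEE-SAP, and in cKO it was 274051 to 275498 with saline and 165855 to 186416 with FAEE-SAP. In whole pancreas, fewer cells of a type and less RNA per cell cannot be told apart.

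In saline-treated WT pancreas, *Gnmt* was the most abundant of the 10 transcripts, at a mean of 57.5 ± 19.2 scaled RPKM (SD, n = 2), a level per length of transcript. *Gatm* (40.9 ± 0.591), *Phgdh* (33.0 ± 3.22), *Cbs* (21.7 ± 1.82), and *Gamt* (19.8 ± 3.16) followed. *Shmt2* (5.93 ± 2.24), *Cth* (3.75 ± 1.85), and *Psat1* (3.19 ± 1.57) were lower, and *Psph* (0.580 ± 0.394) and *Shmt1* (0.505 ± 0.114) were the lowest. *Cbs* and *Gamt*, *Shmt2* and *Cth*, *Cth* and *Psat1*, and *Psph* and *Shmt1* overlapped between libraries, and the other neighbours in this order did not. The order of the 10 means was identical in cKO saline and in cKO FAEE-SAP, although more neighbours overlapped there. In WT FAEE-SAP, *Cth* stood ninth, below *Shmt1*, the libraries of both genes not overlapping.

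**Figure D1:**
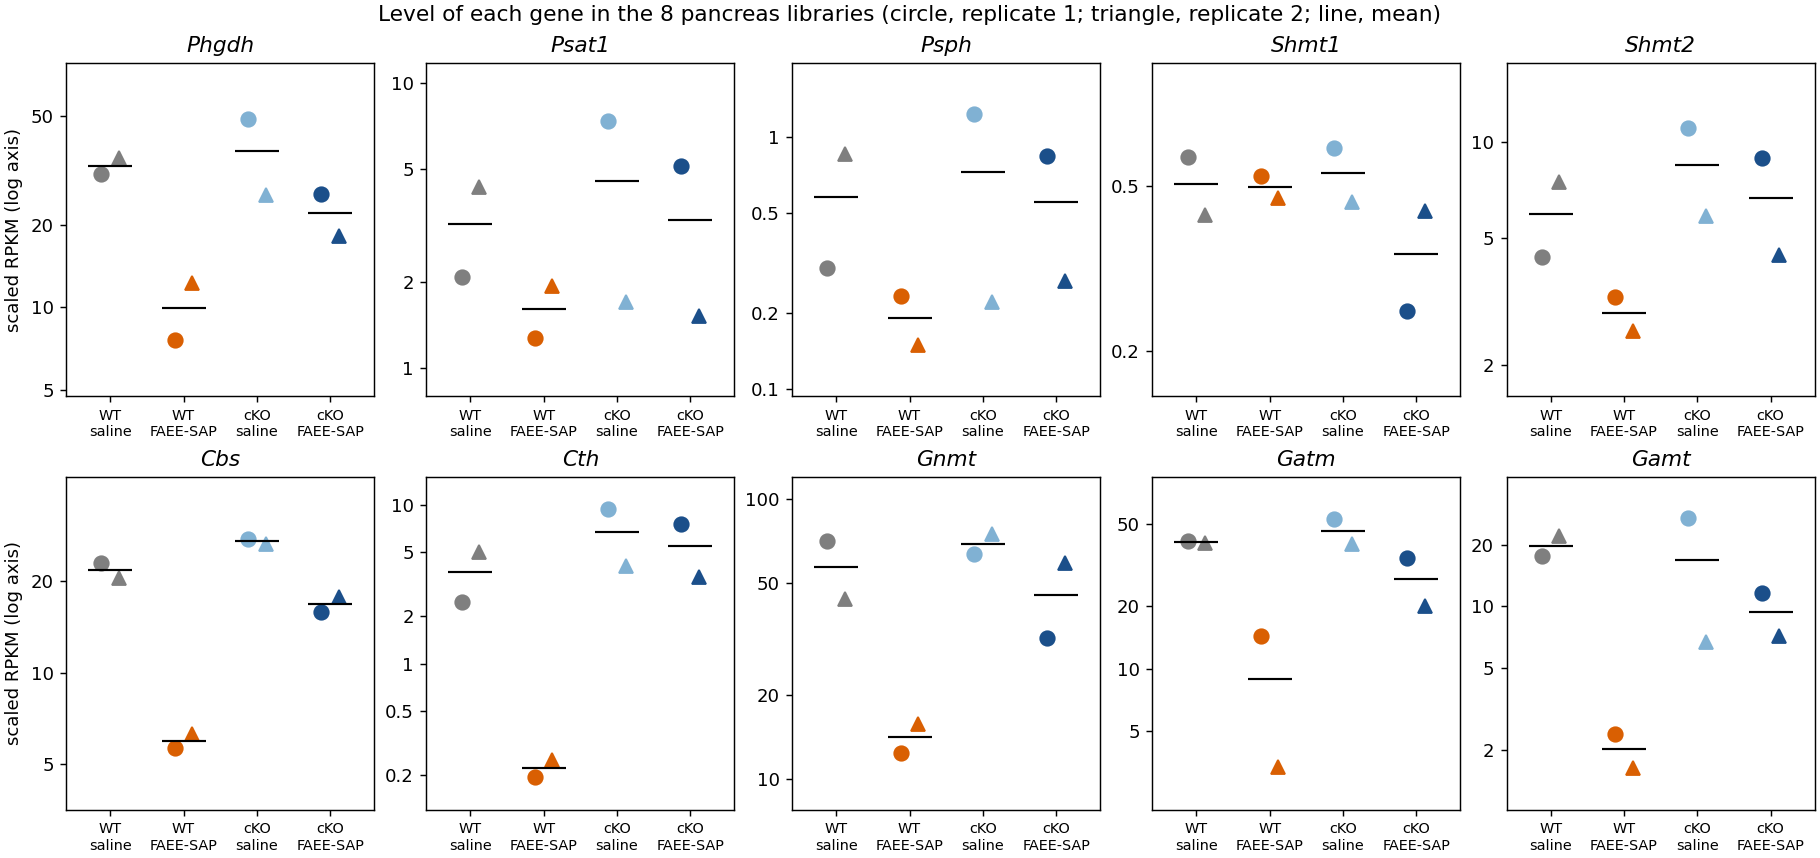
Scaled RPKM (log axis) of the 10 genes in the 8 pancreas libraries, by genotype and treatment; each symbol is 1 library and each line the mean of the 2 libraries of a group. *Cth* lies at 0.193 and 0.249 in WT FAEE-SAP and at 2.45 to 9.35 in the other 6 libraries, and *Shmt1* stays between 0.250 and 0.615 throughout.

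FAEE-SAP was compared with saline first in WT mice. Of the 9 genes other than *Cth*, 8 were expressed highly enough to test, all 8 had a negative log2 fold change after scaling (5 of 8 in the values as deposited), and 4 fell (limma, adjusted p under 0.05 and at least 2-fold): *Gamt*, *Gnmt*, *Cbs*, and *Phgdh*. Of all 10894 genes tested in this comparison, 3.86% were called lower. The median log2 fold change was -1.82 over these 8 genes and 0.02 over all genes tested. *Shmt1* passed the filter of 0.5 deposited RPKM only through the FAEE-SAP libraries, and *Psph* did not pass it. The WT FAEE-SAP libraries also belong to the contrast by which *Cth* was picked.

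Among the genes tested other than *Cth*, the largest fall was in the creatine pathway. *Gamt*, the last enzyme of creatine synthesis, was at 17.6 and 22.0 scaled RPKM in WT saline and at 2.39 and 1.63 in WT FAEE-SAP. Both treated libraries were far below both saline libraries, with a log2 fold change of -3.27 (SE 0.25) and an adjusted p of 0.0035. *Gatm*, which makes the precursor guanidinoacetate, was at 41.3 and 40.5 in WT saline and at 14.4 and 3.34 in WT FAEE-SAP. The groups did not overlap, but the 2 treated libraries differed 4.33-fold, and the log2 fold change of -2.55 (SE 0.63) did not pass the test (adjusted p = 0.067). Without WT FAEE-SAP replicate 1, the *Gatm* value was -3.54 (adjusted p = 0.023), and without WT FAEE-SAP replicate 2 it was -1.46 (adjusted p = 0.070). With all 8 libraries in 1 model it was -2.54 and passed (adjusted p = 0.042).

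*Gnmt*, which uses S-adenosylmethionine to methylate glycine and is abundant in acinar cells, was at 71.0 and 43.9 scaled RPKM in WT saline and at 12.4 and 15.7 in WT FAEE-SAP. It fell by 2.0 on the log2 scale (SE 0.28, adjusted p = 0.017). In the transsulfuration pathway, *Cbs*, the first enzyme, was at 23.0 and 20.4 in WT saline and at 5.64 and 6.27 in WT FAEE-SAP. Its libraries were the closest to each other of the genes that fell, and its log2 fold change was -1.86 (SE 0.18, adjusted p = 0.0062). *Cth*, which releases cysteine from cystathionine, was at 2.45 and 5.06 in WT saline and at 0.193 and 0.249 in WT FAEE-SAP. These levels correspond to about 141 and 334 reads with saline and about 25 and 44 reads with FAEE-SAP. The log2 fold change of -3.59 (SE 0.38) is given as a description, and *Cth* passed the filter only through the saline libraries.

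In the serine pathway, *Phgdh*, the first enzyme, was at 30.7 and 35.3 scaled RPKM in WT saline and at 7.57 and 12.2 in WT FAEE-SAP. It fell by 1.77 on the log2 scale (SE 0.26, adjusted p = 0.021). *Psat1*, the second enzyme, was at 2.08 and 4.30 with saline and at 1.28 and 1.95 with FAEE-SAP. Its groups did not overlap, and its log2 fold change was -0.90 (SE 0.39, adjusted p = 0.21). The *Psat1* value was -1.41 without WT saline replicate 1 and -0.41 without WT saline replicate 2. *Psph*, the last enzyme, was at 0.302 and 0.859 with saline and at 0.234 and 0.149 with FAEE-SAP, too low for the test.

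The 2 serine hydroxymethyltransferase genes are set side by side. *Shmt2*, the mitochondrial form, was at 4.35 and 7.51 scaled RPKM in WT saline and at 3.27 and 2.55 in WT FAEE-SAP. Its groups did not overlap, with a difference of -0.97 on the log2 scale (SE 0.31, adjusted p = 0.11). That difference was -1.36 without WT saline replicate 1 and -0.60 without WT saline replicate 2. *Shmt1*, the cytosolic form, was at 0.586 and 0.424 with saline and at 0.527 and 0.467 with FAEE-SAP. Its groups overlapped, and the difference was -0.01 (95% interval -0.69 to 0.67). In all, 7 of the 8 tested genes other than *Cth* were lower without overlap, against 29.1% of all genes tested, and 4 were in the values as deposited.

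The values depended on the scaling and on single libraries. As deposited, without scaling, the median difference of all genes tested was 1.24 on the log2 scale. On that scale *Gamt* (-1.97, adjusted p = 0.0022) was still lower by the same criteria, whereas *Cbs* (-0.55), *Gnmt* (-0.68), and *Phgdh* (-0.45) no longer reached 2-fold, and *Shmt1* (1.13), *Psat1* (0.37), and *Shmt2* (0.32) had positive values. Without WT saline replicate 1 or without WT saline replicate 2, the called genes were *Gamt*, *Cbs*, and *Gnmt*. They were *Gamt*, *Cbs*, and *Gatm* without WT FAEE-SAP replicate 1, and *Gamt* and *Phgdh* without WT FAEE-SAP replicate 2.

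**Figure D2:**
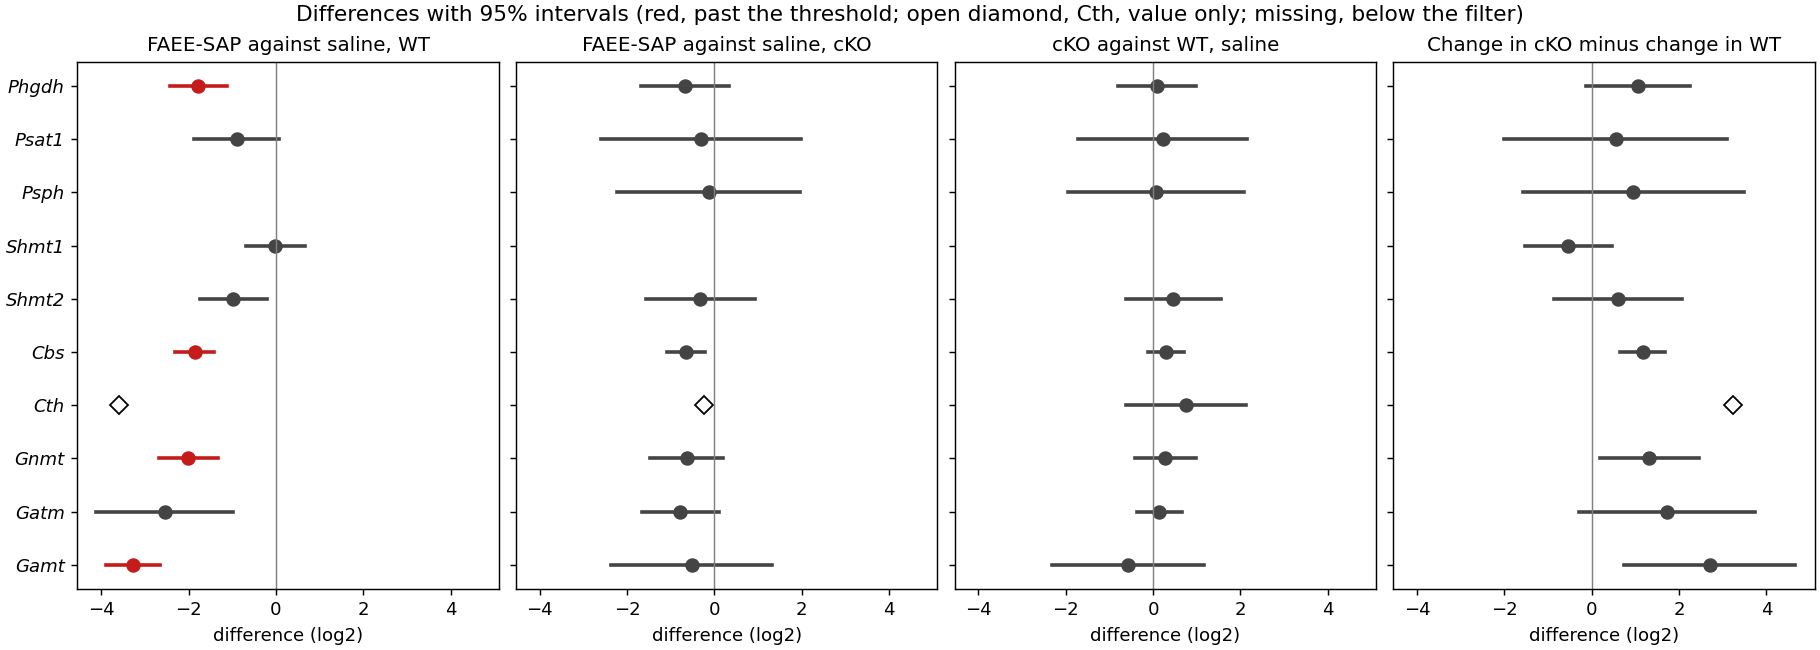
Differences in log2(scaled RPKM + 0.1) with 95% intervals for the treatment within WT and within cKO, for cKO against WT with saline, and for the change in cKO minus the change in WT. In WT, *Gamt*, *Gnmt*, *Cbs*, and *Phgdh* (red) lie left of -1 with intervals that exclude 0; in cKO all 9 values are negative on this scale, though not as deposited, and none is red.

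Acinar markers moved with these genes. In WT, 9 of the 11 acinar markers tested were called lower in the treated libraries, their median difference was -1.81, and their summed level was 3.09-fold lower. Set beside that, the ratio of saline to FAEE-SAP means was 3.65 for *Cbs*, 4.09 for *Gnmt*, 3.33 for *Phgdh*, 4.60 for *Gatm*, 9.86 for *Gamt*, and 17.0 for *Cth*. Ratios for *Psph* (3.03), *Psat1* (1.98), *Shmt2* (2.04), and *Shmt1* (1.02) were smaller than that of the summed acinar markers. By log2 fold change, *Phgdh* (-1.77) and *Cbs* (-1.86) lay on either side of the acinar median of -1.81. As a share of all deposited RPKM, the acinar markers made up 30.4% and 31.3% in WT saline and 28.4% and 28.2% in WT FAEE-SAP. Summed myeloid markers were at 54.5 and 68.7 scaled RPKM in WT saline and at 141 and 109 in WT FAEE-SAP, with 3 of 9 called higher. Summed adipocyte markers were at 34.1 and 61.2 with saline and at 79.97 and 111 with FAEE-SAP, with 2 of 6 called higher. Summed hepatocyte markers, of which 3 of 12 could be tested and 1 was called lower, were at 13.5 and 16.5 with saline and at 4.54 and 3.92 with FAEE-SAP. Summed islet markers were at 340 and 285 with saline and at 182 and 240 with FAEE-SAP, with 2 of 8 called lower, and 1 of 6 duct markers was called higher. The part of these shifts in the results was not tested.

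The 4 genes that passed the test lie on 3 chromosomes, each on the minus strand (GRCm38, GENCODE vM21): *Phgdh* at chr3:98313170-98339990, *Cbs* at chr17:31608894-31637238, *Gnmt* at chr17:46725664-46729168, and *Gamt* at chr10:80258151-80261012. *Cth* lies at chr3:157894248-157925077 on the same strand. *Gnmt* and *Cth* each overlap an unnamed gene model, and reads shared with it cannot be assigned. Promoters were matched in RefSeq (GRCm38.p6) for 9 of the 10 genes, all but *Cth*, and 10 promoters were found for these 9. The bases before the start site are shown for the 4 genes that fell, 5′ to 3′ on the minus strand, from chr3:98339991-98340219 (*Phgdh*), chr17:31637239-31637455 (*Cbs*), chr17:46729169-46729415 (*Gnmt*), and chr10:80261013-80261262 (*Gamt*). Capitals mark CCAAT or, on the other strand, ATTGG, the letters bound by the factor NF-Y.
Phgdh: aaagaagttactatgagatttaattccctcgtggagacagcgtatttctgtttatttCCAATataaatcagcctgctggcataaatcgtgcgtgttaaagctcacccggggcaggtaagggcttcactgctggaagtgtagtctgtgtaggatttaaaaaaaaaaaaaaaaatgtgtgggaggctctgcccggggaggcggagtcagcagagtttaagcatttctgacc
Cbs: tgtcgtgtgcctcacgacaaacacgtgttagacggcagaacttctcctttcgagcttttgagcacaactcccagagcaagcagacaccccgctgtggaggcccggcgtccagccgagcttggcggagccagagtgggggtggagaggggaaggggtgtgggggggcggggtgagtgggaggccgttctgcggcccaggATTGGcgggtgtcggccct
Gnmt: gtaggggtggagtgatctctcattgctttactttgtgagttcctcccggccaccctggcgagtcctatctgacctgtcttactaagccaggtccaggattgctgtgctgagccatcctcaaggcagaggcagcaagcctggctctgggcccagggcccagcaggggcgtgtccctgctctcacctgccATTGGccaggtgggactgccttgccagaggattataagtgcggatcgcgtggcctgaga
Gamt: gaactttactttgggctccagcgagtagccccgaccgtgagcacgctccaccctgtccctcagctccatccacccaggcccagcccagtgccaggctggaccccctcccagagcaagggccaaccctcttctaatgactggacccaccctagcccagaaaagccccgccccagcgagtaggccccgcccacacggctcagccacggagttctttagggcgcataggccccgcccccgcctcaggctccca

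The 3 sequences other than that of *Gamt* each hold 1 CCAAT motif within the bases shown. In windows of 300 bases around the start sites, CCAAT in either direction was found in 7 of the 10 promoters of the 9 matched genes. It was found in 37.4% of all 32851 promoters. The letters TGATGNAA, a form of the element bound by ATF4 and its partners, in either direction, were found in 0 of these 10 promoters, which leave out *Cth*. They were found in 3.97% of all promoters. With no TGATGNAA match, no overlap of the 2 motifs arose.

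In cKO mice, the same treatment comparison called none of the genes (limma), and 5 of the 9423 genes tested were called (0.0531%), all of them higher. Of the 8 genes tested other than *Cth*, all 8 had a negative log2 fold change after scaling (4 of 8 in the values as deposited), with a median of -0.58 against -0.01 over all genes. These signs also rested on single libraries. Without cKO saline replicate 1, *Psat1* (0.71), *Gamt* (0.48), and *Shmt2* (0.13) were positive, and without cKO FAEE-SAP replicate 2, *Psat1* (0.60), *Psph* (0.57), and *Shmt2* (0.24) were. *Cbs* was at 27.7 and 26.5 scaled RPKM in cKO saline and at 15.9 and 17.8 in cKO FAEE-SAP, with no overlap. Its log2 fold change was -0.65 (SE 0.16, 95% interval -1.08 to -0.23, adjusted p = 0.43), and it was the only one of the 8 with an unadjusted p under 0.05, a level passed by 9.42% of all genes.

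*Gnmt* was at 63.6 and 75.3 in cKO saline and at 31.9 and 59.2 in cKO FAEE-SAP, with a log2 fold change of -0.64 (SE 0.32), which was -0.19 without cKO FAEE-SAP replicate 1 and -1.01 without cKO FAEE-SAP replicate 2. *Gatm* was at 52.9 and 40.0 with saline and at 34.2 and 20.1 with FAEE-SAP, with a log2 fold change of -0.78 (SE 0.34), which was -1.16 and -0.33 without the same libraries. Both genes were lower without overlap, as was *Cbs*, so 3 of 8 genes were, against 23.6% of all genes tested, and 0 of 8 were in the values as deposited. *Phgdh* was at 48.9 and 25.8 with saline and at 25.9 and 18.3 with FAEE-SAP, and *Gamt* at 26.9 and 6.70 and at 11.6 and 7.19. Their saline libraries spanned 1.90-fold and 4.01-fold, and the groups overlapped.

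*Cth* was at 9.35 and 4.08 scaled RPKM in cKO saline and at 7.54 and 3.49 in cKO FAEE-SAP, a log2 fold change of -0.23 (SE 0.55) given as a description, which was 0.36 without cKO saline replicate 1 and 0.38 without cKO FAEE-SAP replicate 2. *Shmt2* was at 11.1 and 5.88 with saline and at 8.91 and 4.42 with FAEE-SAP. *Psat1* was at 7.33 and 1.71 and at 5.10 and 1.52, and *Psph* at 1.23 and 0.221 and at 0.840 and 0.268. In each of these 4 genes the groups overlapped, and the intervals of *Psat1* (-2.59 to 1.98) and *Psph* (-2.23 to 1.97) took in a 2-fold change in either direction. *Shmt1*, at 0.615 and 0.456 and at 0.250 and 0.435, was below the filter. The summed acinar markers were 1.56-fold lower in cKO FAEE-SAP than in cKO saline, and 0 of 11 were called, with an unadjusted p under 0.05 for 6. Myeloid markers were higher in 9 of 9 (unadjusted p under 0.05 for 4), islet in 7 of 7 (2), lymphoid in 8 of 9 (1), and fibroblast and stellate in 7 of 8 (1). Adipocyte markers were lower in 3 of 4 (0). The part of these shifts was not tested.

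Whether the response differed between genotypes was tested as the change in cKO minus the change in WT. None of the genes passed (limma), and 8 of 11133 genes did (0.0719%). Of the 9 genes other than *Cth*, 8 had a positive difference after scaling, meaning a smaller decrease in cKO (6 in the values as deposited), and the median was 1.06 against 0.02 over all genes. The difference was 1.16 for *Cbs* (SE 0.22, 95% interval 0.65 to 1.68, adjusted p = 0.15), 2.70 for *Gamt* (SE 0.84, adjusted p = 0.28), and 1.32 for *Gnmt* (SE 0.48, adjusted p = 0.34). These 3 had an unadjusted p under 0.05, as did 12.6% of all genes. *Gatm* (1.72, SE 0.86), *Phgdh* (1.06, SE 0.51), *Psph* (0.95, SE 1.08), *Shmt2* (0.60, SE 0.62), and *Psat1* (0.55, SE 1.09) had intervals that included 0. The *Gatm* value was 2.76 without WT FAEE-SAP replicate 1 and 0.69 without WT FAEE-SAP replicate 2, and that of *Gamt* was 3.69 without cKO saline replicate 1 and 1.71 without cKO saline replicate 2. When each library was left out in turn, *Cbs* stayed between 1.07 and 1.25, *Gnmt* ranged from 0.87 to 1.78, *Phgdh* from 0.59 to 1.51, and *Shmt2* from 0.11 to 1.10, whereas *Psat1* (-0.48 to 1.56) and *Psph* (-0.07 to 2.0) took both signs. *Shmt1* was the exception in sign (-0.54, SE 0.42), at -0.74 without WT saline replicate 1 and -0.35 without WT saline replicate 2. The acinar markers had a median difference of 0.98 with 0 of 11 called and an unadjusted p under 0.05 for 7. Islet markers had a median of 1.21 with an unadjusted p under 0.05 for 6 of 8. For myeloid markers the median was -0.36, with such a p for 4 of 9.

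With saline alone, cKO and WT were compared to see whether the genotype shifted the levels before injury. None of the 9 genes tested passed (limma, adjusted p = 0.999 for each), and 0 of 8715 genes did, a share of 0%. The share of all genes with an unadjusted p under 0.05 was 2.15%, and 0 of the 9 genes had one. *Cth*, whose value here is independent of the contrast it was picked on, was at 2.45 and 5.06 scaled RPKM in WT and at 9.35 and 4.08 in cKO. The genotypes overlapped, and the difference was 0.76 (SE 0.53, 95% interval -0.61 to 2.14). It was 0.18 without cKO saline replicate 1, the highest library, 0.22 without WT saline replicate 1, 1.28 without WT saline replicate 2, and 1.34 without cKO saline replicate 2.

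The narrowest intervals were those of *Cbs* (0.29, -0.12 to 0.70), *Gatm* (0.14, -0.38 to 0.66), *Gnmt* (0.28, -0.41 to 0.98), and *Phgdh* (0.08, -0.81 to 0.97). In this fit alone they excluded a 2-fold difference in either direction. The SE of *Gatm* was 0.61 with all 8 libraries in 1 model, and the replicate block gave 0.37 for *Phgdh* and 0.32 for *Gnmt*. *Phgdh* was -0.38 without cKO saline replicate 1 and 0.54 without cKO saline replicate 2. *Gnmt* was 0.59 without WT saline replicate 1 and -0.05 without WT saline replicate 2. *Cbs* was also the 1 gene whose cKO libraries (27.7 and 26.5) both lay above the WT libraries (23.0 and 20.4), against 16.3% of all genes, and they overlapped as deposited. *Gamt* (-0.57, -2.31 to 1.16), *Psat1* (0.22, -1.72 to 2.16), and *Psph* (0.06, -1.96 to 2.08) were too variable between libraries to bound a 2-fold difference. Without cKO saline replicate 1 and without cKO saline replicate 2, *Gamt* was -1.56 and 0.42, and *Psat1* was -0.79 and 1.22. *Shmt2* (0.46, -0.63 to 1.55) was 0.01 and 0.91 without the same libraries. Summed hepatocyte markers were at 41.6 scaled RPKM in cKO saline replicate 1 and at 3.92 to 16.5 in the other 7 libraries, and *Apoa1* (10.5) and *Fabp1* (12.7), which intestine also makes, were high there. Liver is rich in several of the 10 enzymes, and the part of these reads in the high values of that library was not tested.

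After FAEE-SAP, the contrast by which *Cth* was picked, cKO libraries held 7.54 and 3.49 scaled RPKM of *Cth* and WT libraries 0.193 and 0.249. The log2 difference was 4.16 (SE 0.39). *Gamt* differed by 2.16 (SE 0.31), *Gatm* by 1.89 (SE 0.67), *Gnmt* by 1.62 (SE 0.33), *Cbs* by 1.48 (SE 0.20), *Phgdh* by 1.16 (SE 0.30), and *Shmt2* by 1.09 (SE 0.36). *Gatm* differed by 2.91 without WT FAEE-SAP replicate 1 and by 0.83 without WT FAEE-SAP replicate 2. In 6 of the 8 tested genes other than *Cth*, both cKO libraries lay above both WT libraries, against 26.5% of all genes tested. *Cth* did so as well. *Psat1* (0.79, SE 0.56) overlapped. Without cKO FAEE-SAP replicate 1 and without cKO FAEE-SAP replicate 2, the differences were -0.04 and 1.63 for *Psat1*, 0.62 and 1.58 for *Shmt2*, 2.10 and 1.16 for *Gnmt*, and -0.15 and -0.86 for *Shmt1*. *Shmt1* (-0.50, SE 0.34) lay lower in both cKO libraries, as did 25.3% of all genes. As deposited, 3 genes other than *Cth* were higher in both cKO libraries, as was *Cth*, and *Psat1* had a negative value (-0.13). *Cth* passed the filter only through the cKO libraries, and *Shmt1* only through the WT libraries. Summed acinar markers were 2.48-fold higher in cKO, and the ratios of means were 25.0 for *Cth*, 4.69 for *Gamt*, 3.24 for *Gnmt*, 3.05 for *Gatm*, 2.83 for *Cbs*, 2.89 for *Psph*, 2.23 for *Phgdh*, 2.29 for *Shmt2*, 2.05 for *Psat1*, and 0.689 for *Shmt1*. Summed islet markers were at 182 and 240 scaled RPKM in WT and at 429 and 451 in cKO. Myeloid sums were 141 and 109 in WT and 100 and 78.7 in cKO. Adipocyte sums were 79.97 and 111 in WT and 86.5 and 23.2 in cKO, and hepatocyte sums 4.54 and 3.92 in WT and 10.3 and 7.22 in cKO. Here too, the part of cell makeup was not tested.

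The rest of the linked pathways was read from 5 lists that leave out the 10 genes. In the values as deposited, the medians of these lists in WT were positive (0.44 to 1.04), so the differences below are relative to the scaling. Of all genes tested, 3.86% were called lower and 3.08% higher. In WT, FAEE-SAP against saline called *Mthfd2* and *Sardh* lower among the 16 tested genes of folate one-carbon metabolism and glycine cleavage, with 0 higher, and the median log2 difference was -0.26. *Aldh1l2*, a mitochondrial enzyme that oxidizes formyl-folate, was at 3.97 and 5.70 scaled RPKM with saline and at 0.129 and 0.257 with FAEE-SAP. It passed the filter only through the saline libraries, so its log2 difference of -4.19 (SE 0.33) is a description. *Mthfd2*, the mitochondrial methylene-folate dehydrogenase, fell by 2.07 (SE 0.18, adjusted p = 0.0049), and *Sardh*, which demethylates the sarcosine made by GNMT, by 1.14 (SE 0.22, adjusted p = 0.039).

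Of the methionine cycle, methylation, and polyamine genes, 3 of 17 were called lower and 0 higher, with a median of -0.32. They were *Apip* (-1.17) and *Adi1* (-1.15), which salvage methionine, and *Amd1* (-1.15), which commits S-adenosylmethionine to polyamines. Of the cysteine, taurine, sulfide, and glutathione genes, 1 of 17 was called lower (*Chac2*, which degrades glutathione, -2.07) and 1 higher (*Gsr*, glutathione reductase, 1.01), with a median of -0.37. Of the creatine use and arginine supply genes, 1 of 10 was called lower (*Ass1*, which makes argininosuccinate, -1.08), with a median of -0.18.

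The other amino acid synthesis and amino acid response genes had the lowest median, -0.84, with 4 of 22 called lower and 1 higher. *Pycr1*, a proline synthesis enzyme, was at 3.37 and 4.50 scaled RPKM with saline and at 0.400 and 0.321 with FAEE-SAP, a fall of 3.19 on the log2 scale (SE 0.25, adjusted p = 0.0037). *Gcat*, which turns a threonine product into glycine, fell by 1.99, *Gpt2*, a mitochondrial alanine aminotransferase, by 1.68, and *Asns*, asparagine synthetase, by 1.18. *Nupr1*, a stress-induced chromatin protein, was at 256 and 205 with saline and at 707 and 719 with FAEE-SAP, a rise of 1.63 (SE 0.16, adjusted p = 0.0072). For the treatment in cKO mice, with saline alone, and for the difference between genotypes, none of the genes of the 5 lists passed (limma). In cKO, 0 to 3 genes of a list (at most 3 of 16) had an unadjusted p under 0.05, against 9.42% of all genes. With saline alone it was 0 to 2 (at most 2 of 15), against 2.15%. For the difference it was 0 to 5, with 5 of 22 and 3 of 10 as the largest shares, against 12.6%. Of the genes called lower in WT, *Sardh*, *Apip*, *Adi1*, *Amd1*, *Ass1*, and *Asns* were not lower as deposited.

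**Figure D3:**
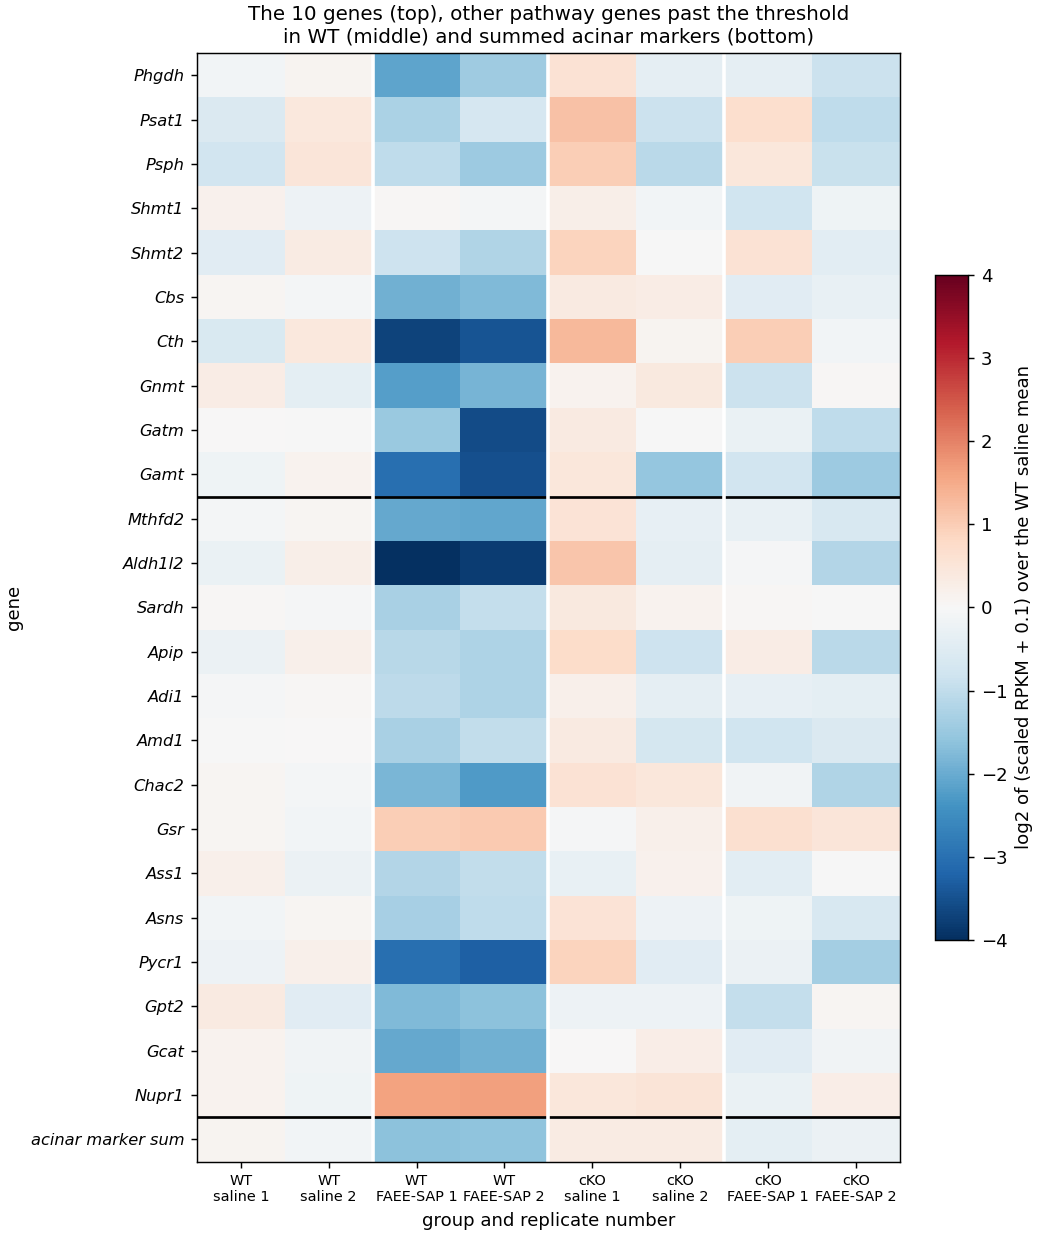
Level of each gene in each library relative to the mean of the 2 WT saline libraries, as log2 of scaled RPKM + 0.1, for the 10 genes, for the other pathway genes past the criteria in WT, *Aldh1l2* included, and for the summed acinar markers. *Cth*, *Gamt*, *Aldh1l2*, and *Pycr1* are dark in both WT FAEE-SAP columns, *Gatm* is as dark in replicate 2 alone, and *Gsr* and *Nupr1* are the 2 genes clearly above the saline mean there.

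The genes whose levels followed *Cth* most closely over the 8 libraries, among 7375 genes with a mean of at least 1 scaled RPKM, were *Metrn* (Pearson's r = 0.98), *Tppp3* (0.98), *S100a1* (0.97), *Aldh1l2* (0.97), and *mt-Nd1* (0.97). The 8 points share 4 groups, so the WT FAEE-SAP libraries, the lowest in all 5 genes, weigh on each value. *Aldh1l2* was at 10.5 and 3.75 scaled RPKM in cKO saline and at 4.67 and 2.08 in cKO FAEE-SAP, besides the WT values above. *Psph* and *Shmt1* were below that mean, and of the other 7 genes described here *Cbs* came closest to *Cth* (r = 0.91), at rank 209.

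The 2 libraries of a group were not alike in these genes, and the way in which they differed was shared. WT saline replicate 2, cKO saline replicate 1, and cKO FAEE-SAP replicate 1 each held more *Phgdh*, *Psat1*, *Psph*, *Shmt2*, *Cth*, and *Gamt* than the other library of the group. This was looked for after the values had been seen, and the same held for 22.9% of all genes. The gap was at least 1.5-fold in all 3 groups for *Psat1*, *Psph*, *Shmt2*, and *Cth*, and for 2.67% of all genes. It was 2.07, 4.28, and 3.36 for *Psat1*, 2.84, 5.57, and 3.13 for *Psph*, 2.07, 2.29, and 2.16 for *Cth*, and 1.73, 1.89, and 2.02 for *Shmt2*. *Cbs* differed by no more than 1.13-fold between the libraries of any group, and *Gnmt* ran the other way in the same 3 pairs, with ratios of 0.618, 0.844, and 0.538. In the WT FAEE-SAP group, replicate 1 held more *Psph*, *Shmt2*, *Gamt*, *Gatm*, and *Shmt1*, and replicate 2 more of the other 5 genes.

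**Figure D4:**
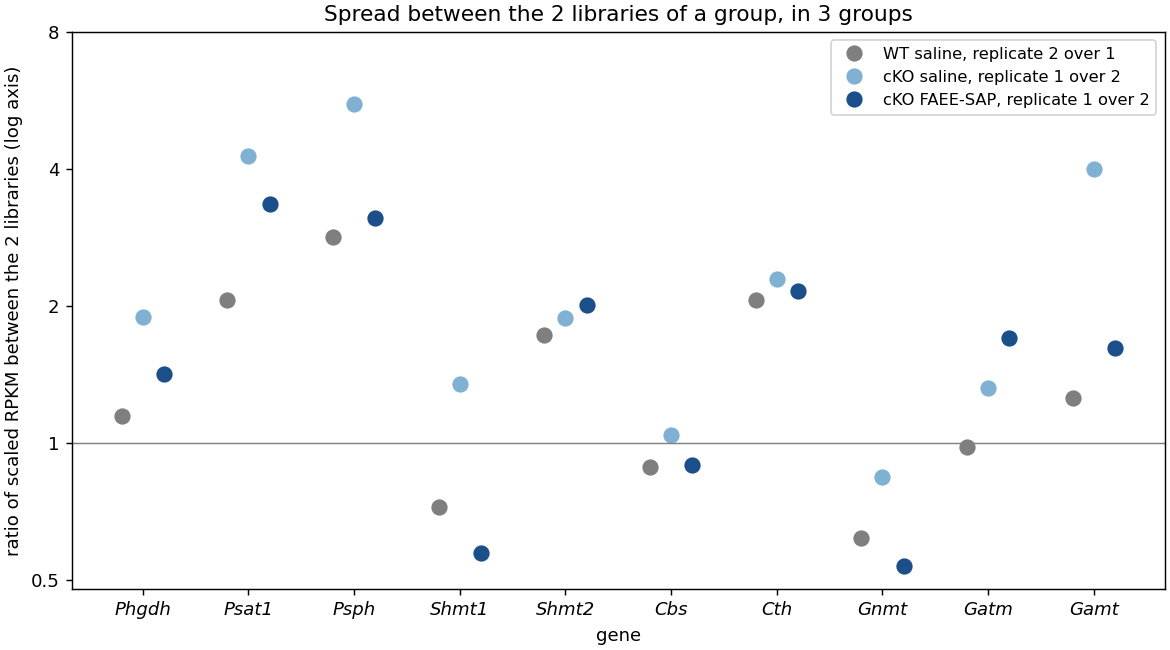
Ratio of scaled RPKM (log axis) between the 2 libraries of a group for each of the 10 genes, in WT saline (replicate 2 over 1), cKO saline (replicate 1 over 2), and cKO FAEE-SAP (replicate 1 over 2). *Psat1*, *Psph*, *Shmt2*, and *Cth* lie above 1.5 in all 3 groups, *Cbs* lies between 0.888 and 1.04, and *Gnmt* lies below 1 in all 3.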

How the data were processed

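RNA-Seq of mouse pancreas was analysed in 8 libraries, 2 in each of 4 groups, assigned by the labels. Per the methods and the submitters' processing notes, a directional kit was used, reads were filtered with fastp and mapped to GRCm38.p6 with CLC Genomics Workbench 12.0; use of strand in counting is not given in the sources used here. Values deposited by the authors are RPKM, mapped reads relative to exon length and library size, for 48709 genes in each library; no counts were used. By symbol, 46325 genes (95.1%) were matched to GENCODE vM21. Multiplying by exonic length gave whole reads within 0.1 for 84.2% to 85.5% of the values under 20 reads, too few for a count test, and summed to 100.3% to 105.7% of the library totals, so reads per gene are approximate.

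RPKM was scaled by the median of ratios, over the 8 libraries for levels and within each comparison for tests, which assumes that most genes did not change. Genes with a deposited RPKM of at least 0.5 in at least 2 libraries of a comparison were tested on log2(scaled RPKM + 0.1) with limma 3.58.1 (R 4.3.3), with an intensity trend and Benjamini-Hochberg adjustment over all genes tested; fold changes of low genes are understated on this scale. A gene was called at an adjusted p under 0.05 and at least 2-fold. The difference between genotypes was fitted over all 8 libraries. No label ties replicate numbers to litters or days, and p-values measure only the spread between these libraries, which may be technical. Only the fit of cKO against WT with saline was tested on simulated data, not the fits with FAEE-SAP libraries or the difference between genotypes. The 10 genes, pathway lists, and marker lists were chosen with earlier results of these data known. All 10 genes are named; from other lists, at most 5 called genes per list and comparison; and the 5 genes closest to *Cth*. Any other gene was chosen after its values were seen. Promoters came from RefSeq, GRCm38.p6. Alternatives were other scalings, filters, pseudocounts, variance priors, a replicate block, all libraries in 1 model, and leaving out each library.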

Additional observations from a re-analysis of the deposited data

How the results depend on the processing

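For FAEE-SAP against saline in WT, 4 of the 9 genes other than *Cth* were called. This became 2 with the values as deposited (*Gamt* lower, and *Shmt1* higher, which passed the filter only through the FAEE-SAP libraries) and 2 without a filter on RPKM, 2 to 3 when 1 library was left out, and 5, *Gatm* added, with all 8 libraries in 1 model. Over all genes, 755 were called, 7270 as deposited, 259 without a filter, 506 with a pseudocount of 1, 442 with the replicate block, and 97 to 491 when 1 library was left out. As deposited, 7184 calls were higher and 86 lower, against 335 and 420 after scaling. *Shmt1*, at -0.01 after scaling, was 1.13 as deposited.

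For cKO against WT with FAEE-SAP, 11008 genes were tested, among them 8 of the 9 genes other than *Cth*. *Cth* was picked by this contrast, so counts past the same limits are a description and no test is read from them. They held 2 of the 9 genes other than *Cth* (*Gamt* and *Cbs*, both higher), 2 as deposited (*Gamt* higher and *Shmt1* lower, with *Cbs* at 0.53), 4 with the replicate block, 1 with quantile normalization, a pseudocount of 0.01, or all 8 libraries in 1 model, 0 without a filter or without the intensity trend, and 0 to 1 when 1 library was left out. Over all genes this was 140, 568 with the block, 78 with quantile normalization, 295 with all 8 libraries in 1 model, 0 without a filter, 57 without the trend, 0 to 139 when 1 library was left out, and 4427 as deposited. As deposited, 73 of those were higher and 4354 lower, against 95 and 45 after scaling. In cKO, for saline alone and for the difference between genotypes, 0 of the 10 genes were called under each alternative run. Over all genes the 0 calls with saline alone became 2 as deposited and 1 with quantile normalization, the 5 calls in cKO became 52 with the replicate block, 15 as deposited, 15 with all 8 libraries in 1 model, and 0 without a filter, and the 8 calls for the difference 791 as deposited, 35 with an RPKM minimum of 2, 25 with quantile normalization, 24 with a pseudocount of 1, 3 without the intensity trend, 1 with a pseudocount of 0.01, and 0 with the block or without a filter. Where no cause follows from fewer libraries or more genes tested, the cause was not tested. Same-numbered libraries of different groups correlated in their deviations with r from -0.52 to 0.40, so the numbers were not taken as pairs, and the block changed no other count of the 10 genes. In cKO, where r was 0.40, the block lowered the SE of *Psat1* from 0.88 to 0.16 and of *Psph* from 0.80 to 0.28. Without the block, the cKO intervals of *Psat1* (-2.59 to 1.98), *Psph* (-2.23 to 1.97), and *Gamt* (-2.36 to 1.32) took in a 2-fold change in either direction.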

Other observations

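The shared difference between the libraries of a group reached other amino acid genes. Of the 22 genes of the list of other amino acid synthesis and the amino acid response, 14 (63.6%) were higher in WT saline replicate 2, cKO saline replicate 1, and cKO FAEE-SAP replicate 1 than in the other library of the group, as were 22.9% of all genes. It was 7 of 17 for the methionine cycle list and 4 of 10 for the creatine use list. The folate list (5 of 17, 29.4%) and the cysteine and glutathione list (4 of 17, 23.5%) were nearer the share of all genes. The following genes were chosen after their values were seen. *Chac1*, a glutathione-degrading enzyme of the amino acid response, was at 0.325 and 4.98 scaled RPKM in WT saline and 1.41 and 2.60 in WT FAEE-SAP. In cKO it was at 6.57 and 0.790 with saline and 7.49 and 0.851 with FAEE-SAP. Its libraries differed more within the saline and cKO groups (8.31-fold to 15.3-fold) than the group means did. *Slc7a11*, the cystine importer, was at 0.257 and 0.616 in WT saline, 0.816 and 0.129 in cKO saline, and 0.773 and 0.196 in cKO FAEE-SAP.

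Other genes ran the opposite way in the same libraries, as did 23.8% of all genes. *Glul*, glutamine synthetase, was at 142 and 44.0 scaled RPKM in WT saline and 38.2 and 68.1 in WT FAEE-SAP. In cKO it was at 36.0 and 169 with saline and 19.6 and 256 with FAEE-SAP. *Mat1a*, which makes S-adenosylmethionine, was at 30.9 and 14.2, 5.99 and 9.79, 18.8 and 131, and 22.1 and 45.2 in the same order. *Ahcy*, which clears the product of methylation, was at 219 and 124, 194 and 164, 137 and 247, and 135 and 268. Adipocyte markers also followed the first order in 6 of 6 genes tested, myeloid markers in 6 of 9, lymphoid in 5 of 10, and fibroblast and stellate in 4 of 8. Duct markers did in 3 of 7, endothelium in 2 of 6, hepatocyte in 1 of 4, and islet in 0 of 8. Of 11 acinar markers, 3 followed it and 5 ran the opposite way. The part of cell makeup in it was not tested.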
